A study of Mus musculus with 36 samples.

Results

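Cxcl9, Cxcl10 and Cxcl11 are the 3 chemokine genes whose products bind the receptor CXCR3. Here they were followed across the tumor, heart, liver, lung, kidney and skeletal muscle of mice treated with immune checkpoint blockade or with control antibody. They were chosen by name, and all 3 were found among the 18760 named rows of the deposited expression table, which has 18781 rows in all. The rule itself used none of their measured values, but the choice was made with earlier results of these data known.

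The mice were C57BL/6 wild-type animals carrying tumors of MC38, a mouse colon carcinoma cell line, and the study matched them for age and sex, with ages not given in the sources used here. One group received antibodies to PD1 and CTLA4 at a high dosage (ICB) and the other received IgG as the control. Every animal in the comparison carried a tumor, so the IgG organs are organs of tumor-bearing mice. Bulk RNA sequencing of the 6 tissues gave 3 libraries for each tissue and treatment, 12 groups and 36 libraries in total. Whether replicate libraries stand for separate animals is not stated in the labels, and p-values therefore measure only the spread between libraries, part of which may be technical.

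CXCR3 is carried mainly by activated T cells and NK cells, and its ligands draw these cells toward tissue where interferon is being sensed. Interferon-gamma acts through its receptor and the kinases JAK1 and JAK2 to induce the 3 genes. IRF1 and NF-kB also take part, and type I interferon induces CXCL10 and CXCL11 readily. CXCL9 is the ligand most strictly tied to interferon-gamma and is made largely by macrophages and dendritic cells, whereas many cell types, tumor cells included, can make CXCL10. ACKR3 binds CXCL11 and removes it without classical signalling, and the protease DPP4 trims the ligands to forms that no longer attract cells.

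The 3 genes lie side by side on the minus strand of mouse chromosome 5 (GRCm38, GENCODE M21 annotation). Cxcl9 spans chr5:92321347-92328079, Cxcl10 spans chr5:92346638-92348889 and Cxcl11 spans chr5:92359544-92365485. Art3, a gene of the ADP-ribosyltransferase family, runs over Cxcl10 and Cxcl11 on the other strand from 92331827 to 92414628. Of the 2252 exonic bases of Cxcl10, 133 (5.91%) also lie in Art3 exons, against 0 of those of Cxcl9 and Cxcl11. The pseudogene Gm2673, which has no row of that name in the table, lies on the plus strand over 1582 of the 3794 exonic bases of Cxcl11 (41.7%). Strandedness is not given in the sources used here, so reads of Cxcl10 and Art3, and of Cxcl11 and Gm2673, cannot be told apart within these shared bases. Art3 was abundant in muscle and heart, at 47.4 and 81.0 FPKM in the IgG groups, and low in tumor at 0.303 FPKM. The unit, FPKM, counts fragments per kilobase of gene at a common library depth, as scaled by the authors.

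**Figure D1:**
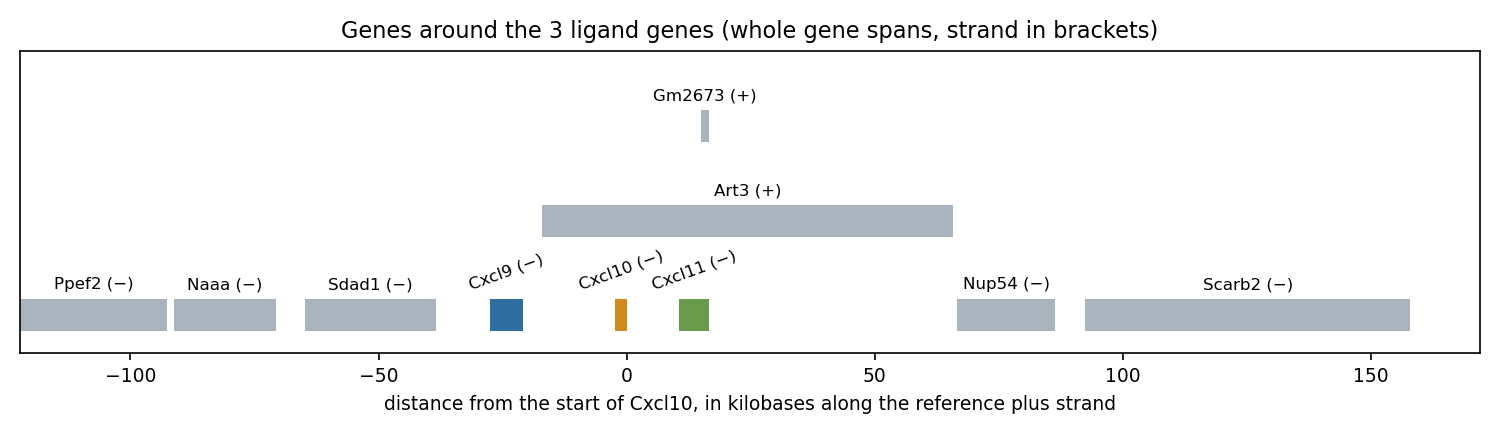
Map of the chromosome region around the ligand genes, with distance from the start of Cxcl10 in kilobases on the x axis and each gene drawn on the strand it is transcribed from. Cxcl9, Cxcl10 and Cxcl11 lie on 1 strand, and Art3 crosses Cxcl10 and Cxcl11 on the other.

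C57BL/6 mice carry a Cxcl11 allele with a frameshift near its start. GENCODE types the gene as a polymorphic pseudogene and RefSeq as a transcribed pseudogene. The first coding exon of the reference, chr5:92363155-92363214 on the minus strand, is printed because it holds the shift, and its capitals mark the 2 bases that the protein-coding model Cxcl11-201 skips.
Cxcl11 first coding exon: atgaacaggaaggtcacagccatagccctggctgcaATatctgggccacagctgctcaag
Counted from the first base of the start codon these are positions 37 and 38. Read with all bases, the frame ends at a stop after 36 codons, and read without those 2 bases it runs for 99 codons. The Cxcl11 values below are therefore levels of a transcript and say nothing of a protein.

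The upstream sequences of the other two ligands are printed because both genes had every ICB tumor library above every IgG tumor library, while their order over the organs differed. RefSeq (GRCm38.p6) gave an entry for Cxcl9 and for Cxcl10. Each line holds the 250 bases before the transcription start, chr5:92328080-92328329 for Cxcl9 and chr5:92348890-92349139 for Cxcl10, both on the minus strand, with matches to the searched motifs in capitals.
Cxcl9 promoter: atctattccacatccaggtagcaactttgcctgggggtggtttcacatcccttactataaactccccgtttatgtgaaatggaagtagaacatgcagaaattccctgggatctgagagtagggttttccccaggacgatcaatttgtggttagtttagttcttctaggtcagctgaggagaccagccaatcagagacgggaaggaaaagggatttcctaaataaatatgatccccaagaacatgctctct
Cxcl10 promoter: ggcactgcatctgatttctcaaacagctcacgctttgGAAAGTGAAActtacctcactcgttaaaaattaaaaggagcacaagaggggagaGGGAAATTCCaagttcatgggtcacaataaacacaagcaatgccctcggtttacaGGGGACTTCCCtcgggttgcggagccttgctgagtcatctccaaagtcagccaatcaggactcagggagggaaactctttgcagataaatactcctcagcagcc
Each motif was searched on both strands. The core of the interferon-stimulated response element, GAAA followed after any 2 bases by GAAA, which IRF factors bind, matched Cxcl10 once, 213 to 204 bases before the start. This core occurred in 2.98% of 32851 promoters of the same length. The NF-kB consensus matched Cxcl10 at 159 to 150 bases before the start and again in a pair of overlapping matches between 104 and 94 bases, and it occurred in 7.25% of promoters. The gamma-activated site TTCNNNGAA matched neither gene and occurred in 7.02% of promoters. No motif of the 3 matched the Cxcl9 window, which says only that these letters are not in it.

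The libraries held 19005189 to 25512980 reads assigned to genes, and whole read numbers could be recovered from the FPKM of every row. Marker genes of each organ were high in the libraries labelled with it: 6 skeletal muscle markers summed to 60608 to 90874 FPKM in the muscle libraries, and 5 liver cell markers to 61010 to 80205 FPKM in the IgG liver libraries. One tumor library stood apart, ICB replicate 2, in which the skeletal muscle markers summed to 349 FPKM against 3.94 to 15.6 FPKM in the other 5. In lung, 5 haemoglobin and erythroid genes ranged from 346.3 to 15636 FPKM between libraries. Results that touch these libraries carry the corresponding values.

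In the tumor, Cxcl10 was the dominant CXCR3 ligand transcript. Its level was 34.5, 42.2 and 48.0 FPKM in the 3 IgG libraries and 77.1, 109 and 65.1 FPKM in the 3 ICB libraries. No organ library came near these values: the highest organ value was 1.84 FPKM, in an ICB liver. Across the 6 libraries of a tissue, Cxcl10 averaged 62.7 ± 27.6 FPKM (SD, n = 6) in tumor, 1.11 in liver, 1.011 in kidney, 0.391 in heart, 0.361 in lung and 0.261 in muscle. Tumor was separate from liver, the next tissue, and each following neighbour overlapped the one before it. The order of the organs depended on scaling: with values rescaled to a common sum per library (TPM scale), kidney came before liver and lung before heart.

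Below 1 FPKM the Cxcl10 values rest on few reads. All 6 lung, 6 muscle and 6 heart libraries lay under 1 FPKM, as did 2 kidney and 2 liver libraries. In muscle the 6 libraries held 4, 4 and 28 reads under IgG and 7, 3 and 15 under ICB. In heart they held 6, 44 and 10 reads under IgG and 18, 8 and 12 under ICB. A single library thus supplied most of the IgG reads in each of these tissues, and the heart library with 44 reads stood at 0.964 FPKM against 0.151 and 0.244 FPKM for the other two.

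Cxcl9 was also highest in tumor, though at a lower level than Cxcl10. It measured 5.71, 9.78 and 3.86 FPKM under IgG and 11.8, 10.7 and 14.6 FPKM under ICB. Liver came next, with 0.504, 2.68 and 3.17 FPKM under IgG and 1.92, 5.59 and 4.24 FPKM under ICB. Over 6 libraries tumor averaged 9.39 ± 3.96 FPKM and liver 3.02 ± 1.78 FPKM, and their ranges overlapped on the deposited scale but were separate on the TPM scale. Liver was the organ in which Cxcl9 reached 1 FPKM most often, in 5 of 6 libraries, against 2 in muscle, 1 in heart and 0 in kidney and lung.

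The remaining organs followed at 0.838 FPKM in muscle, 0.699 in heart, 0.339 in kidney and 0.203 in lung, each overlapping its neighbour. In muscle, Cxcl9 was 0.708, 0.147 and 1.28 FPKM under IgG and 0.990, 0.470 and 1.43 FPKM under ICB, a spread of several fold within each treatment. In heart it was 1.29, 0.769 and 0.473 FPKM under IgG and 0.776, 0.579 and 0.303 FPKM under ICB.

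Cxcl11 was the least abundant ligand transcript in tumor and, unlike the other two, was about as high in liver. In tumor it measured 0.317, 0.357 and 0.301 FPKM under IgG (40, 47 and 44 reads) and 0.759, 1.011 and 0.706 FPKM under ICB (99, 142 and 85 reads). In liver it measured 0.375, 0.868 and 0.217 FPKM under IgG and 0.813, 0.236 and 0.312 FPKM under ICB. Under IgG the liver mean of 0.487 ± 0.340 FPKM was above the tumor mean of 0.325 ± 0.0290 FPKM, with overlapping libraries, and under ICB the order was the opposite, again with overlap. On the TPM scale the 6 tumor libraries lay above the 6 liver libraries.

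Elsewhere Cxcl11 was close to the limit of detection. Muscle averaged 0.0819 FPKM over 6 libraries, with every muscle library below every liver library, and kidney averaged 0.0392 FPKM. In lung and heart 2 reads were counted in the 6 libraries of each tissue, and 4 libraries of each were at 0. A count of 0 allows up to 3 reads, which is 0.0218 to 0.0276 FPKM in those lung libraries, 0.0434 to 0.0493 FPKM in those heart libraries and 0.0335 FPKM in the 1 kidney library at 0. These limits cover counting error only.

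**Figure D2:**
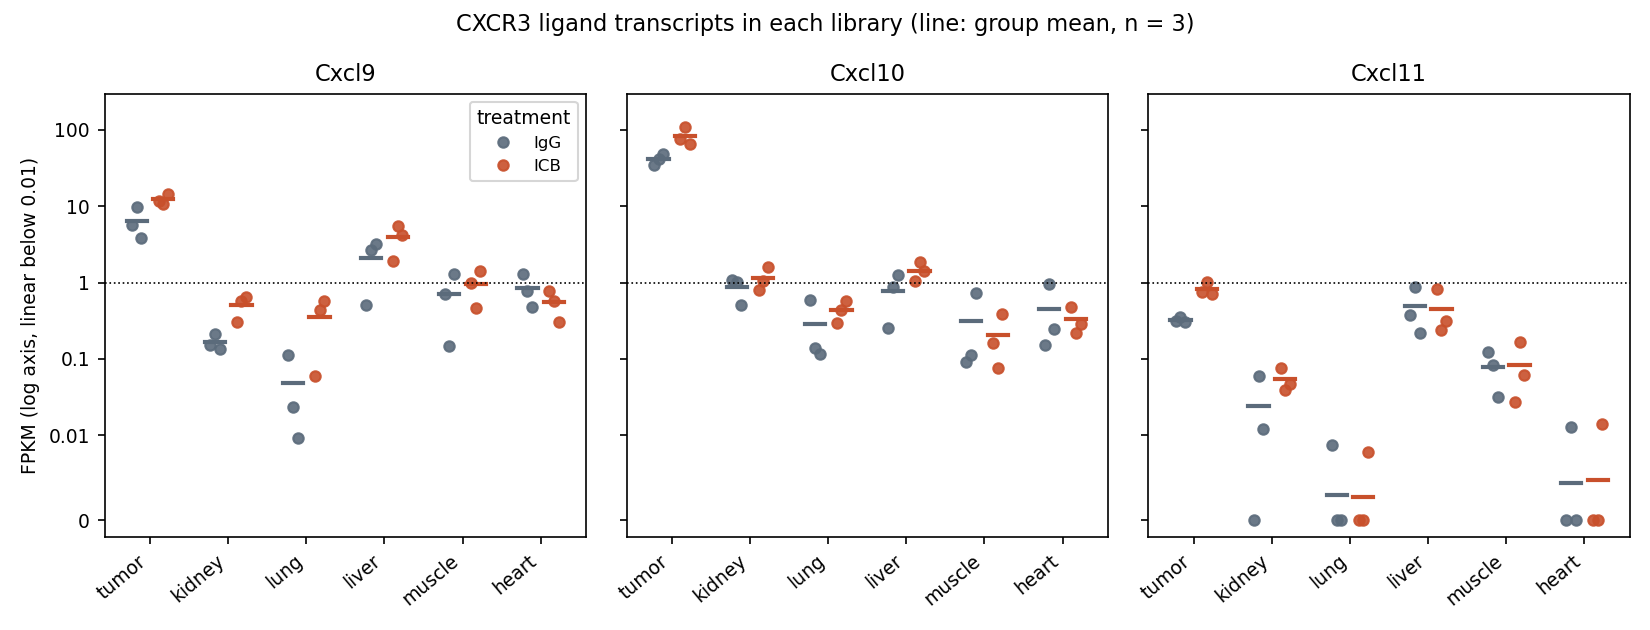
Level of each ligand in each library (FPKM, log axis that is linear below 0.01), by tissue and treatment, with a line at each group mean and a dotted line at 1 FPKM. All 6 tumor libraries lie between 34.5 and 109 FPKM for Cxcl10 and between 3.86 and 14.6 FPKM for Cxcl9, while Cxcl11 passes 1 FPKM in 1 tumor library.

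The mixture of the 3 transcripts differed between tissues. As a share of their summed FPKM, which is a level per length of gene, Cxcl10 made up 85.9% in IgG tumor, 81.3% in IgG kidney and 87.1% in IgG lung. In IgG liver, muscle and heart Cxcl9 made up the larger mean share, with 57.9%, 60.6% and 66.5%. In heart its libraries ranged from 44.0% to 89.6%, and the ratio of Cxcl10 to Cxcl9 reached 1.25. The mean Cxcl11 share was 19.2% in IgG liver (4.69% to 33.2%) and 13.1% in IgG muscle (1.53% to 24.3%), against 0.681% in tumor. Pooled over libraries it was 14.4% in liver and 7.18% in muscle. The IgG muscle libraries held 9, 5 and 2 reads of Cxcl11.

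The ratio of Cxcl10 to Cxcl9 in FPKM was 4.32 to 12.4 in the IgG tumor libraries and 0.322 to 0.502 in the IgG liver libraries. The ratio was 4.46 to 10.2 in ICB tumor and 0.330 to 0.544 in ICB liver, so the tissues did not overlap under either treatment. These per-length values depend on the gene length used. The length implied by the deposited FPKM equals the union of all annotated exons, 3016 bases for Cxcl9, 2252 for Cxcl10 and 3794 for Cxcl11. For Cxcl10 that union is 2.06 times the 1094 bases of its transcript with the longest coding sequence, against 1.04 times for Cxcl9. For Cxcl11 the transcript so chosen was the pseudogene model Cxcl11-202, whose 3794 bases leave its level unchanged. Its protein-coding model Cxcl11-201 has 1581 bases, a ratio of 2.40, and shares on that length are not given here. On the lengths of the transcripts with the longest coding sequence, the Cxcl10 share of IgG liver was 37.1% and that of Cxcl9 47.6%. In ICB heart Cxcl10, at 54.0%, passed Cxcl9, at 45.5%. In IgG heart, on these lengths, Cxcl9 was above Cxcl10 in the mean share, 53.2% against 46.6%. It was below Cxcl10 in the pooled share, 48.5% against 51.3%.

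Between treatments the mixture in tumor was nearly the same, 13.4% Cxcl9 under both and 85.9% against 85.8% Cxcl10. The small Cxcl11 share was 0.577% to 0.784% under IgG and 0.836% to 0.878% under ICB, without overlap. In kidney the Cxcl9 share was 12.6% to 20.8% under IgG and 25.8% to 34.9% under ICB. In lung it was 7.66% to 15.5% under IgG and 16.9% to 49.9% under ICB, also without overlap. Such a gap between 3 libraries and 3 cannot give a two-sided p under 0.1 in an exact permutation test. The shares of a library add up to the whole, so those of Cxcl9 and Cxcl10 are not separate results. The lung shares under IgG rest on 13 reads of Cxcl9 and 58 of Cxcl10 over 3 libraries. The lung libraries at 15.5% and 16.9%, on each side of the gap, held 10 and 6 reads of Cxcl9. In the other organs the Cxcl9 shares overlapped between treatments. Under IgG and ICB they were 44.5% to 68.4% and 50.9% to 72.9% in liver. In muscle they were 42.9% to 76.6% and 66.2% to 84.1%, and in heart 44.0% to 89.6% and 50.2% to 72.3%.

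**Figure D3:**
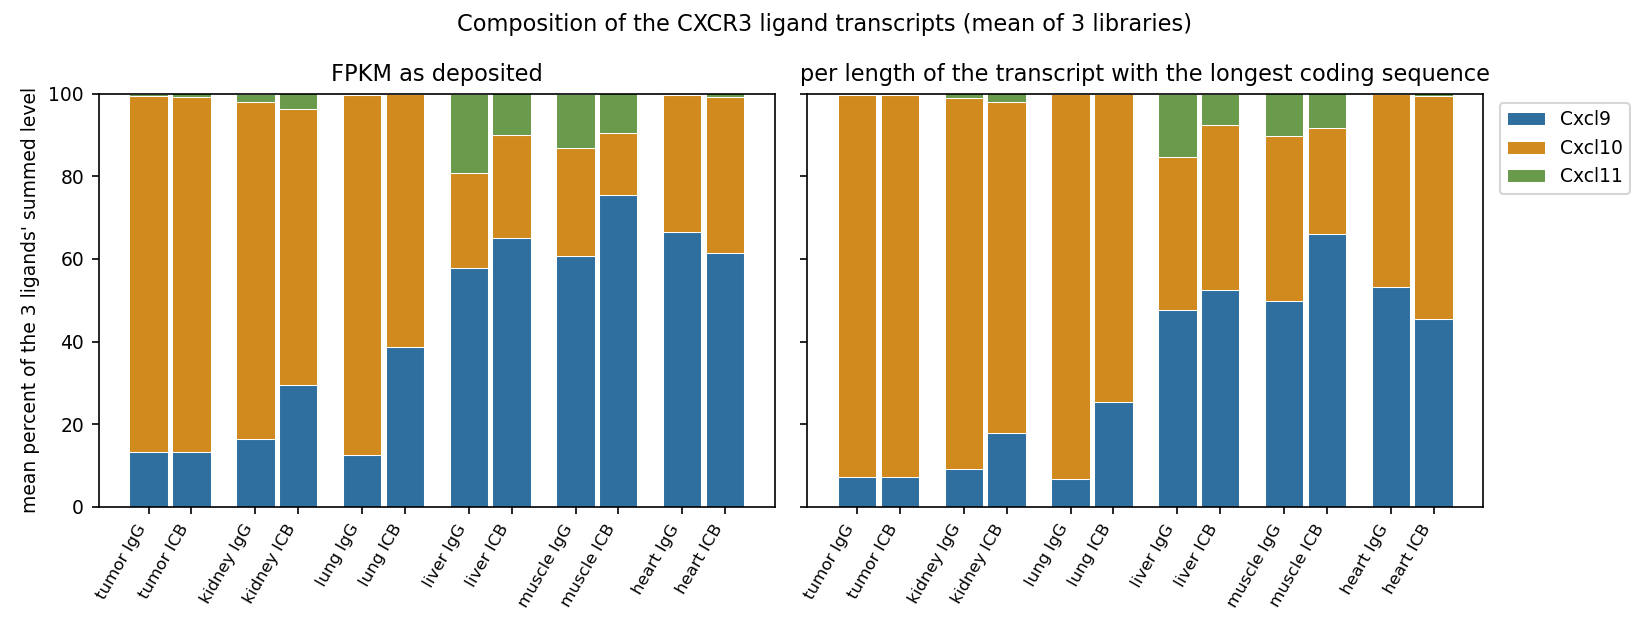
Mean percent of the summed ligand level contributed by Cxcl9, Cxcl10 and Cxcl11 in each group of 3 libraries, from the deposited FPKM (left) and per length of the transcript with the longest coding sequence (right). Cxcl10 fills most of tumor, kidney and lung in both panels, and Cxcl9 is 57.9% of IgG liver on the left and 47.6% on the right.

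The difference between tumor and organs was tested under IgG, in 1 limma fit of log2(FPKM + 1) over all 36 libraries. The 5 comparisons share the tumor IgG libraries. Cxcl10 was higher in tumor than in kidney by 4.51 ± 0.23 (SE) on the log2 scale, and by 5.06, 4.60, 5.04 and 4.90 than in lung, liver, muscle and heart. Each passed with limma, the largest adjusted p being 1.71e-16 for kidney. Cxcl9 was higher by 2.60 ± 0.32 than in kidney, 2.75 than in lung, 2.099 than in muscle and 1.96 than in heart. Against liver its difference was the smallest, 1.31 ± 0.32 (95% interval 0.66 to 1.96, limma adjusted p = 0.000611). Cxcl11 had too few libraries at 1 FPKM to be tested. Organ values under 1 FPKM are compressed on the log2(FPKM + 1) scale, so the sizes of these differences depended on the setting. Over the alternatives Cxcl9 ranged from 2.66 to 7.36 against lung and from 1.22 to 3.12 against liver. Cxcl10 ranged from 4.95 to 7.55 against lung and from 4.42 to 5.97 against kidney.

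Many genes differed this way: the share of 16253 tested genes called higher in tumor was 34.4% against kidney, 34.5% against lung, 35.5% against liver, 36.1% against muscle and 37.2% against heart. Scaling matters for these comparisons. On the TPM scale the median gene was itself higher in tumor, by 0.66 against kidney, 0.25 against lung, 1.43 against liver, 1.07 against muscle and 1.20 against heart. The share of calls that were higher in tumor went from 49.96% to 70.2%, 51.8% to 60.3%, 52.4% to 83.7%, 53.2% to 79.2% and 55.5% to 80.6% in the same order. Relative to that median, Cxcl9 was still higher in tumor by 3.73, 4.43, 1.69, 2.72 and 2.42 and Cxcl10 by 5.31, 6.44, 5.22, 5.99 and 5.67. In bulk tissue fewer cells of a type and less RNA per cell cannot be told apart, and this applies to every difference given here.

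Under ICB all 3 ligands were higher in tumor than under IgG, in each case with every ICB library above every IgG library. The ratio of the group means in FPKM was 1.91 for Cxcl9 (6.45 ± 3.03 to 12.3 ± 2.02, SD, n = 3), 2.02 for Cxcl10 (41.6 ± 6.78 to 83.8 ± 22.8) and 2.54 for Cxcl11 (0.325 ± 0.0290 to 0.825 ± 0.163). For Cxcl11, 131 reads under IgG and 326 under ICB lie behind these means, with exact Poisson intervals of 110 to 155 and 292 to 363 reads. Of 18306 genes with a value in tumor, 5.3% had this separation with ICB higher. An exact permutation test of 3 libraries against 3 cannot give a two-sided p under 0.1.

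In limma, fitted to the 6 tumor libraries, the Cxcl10 difference was 0.97 ± 0.21 (SE, 95% interval 0.47 to 1.48) on the log2(FPKM + 1) scale with an adjusted p of 0.692. Cxcl9 differed by 0.91 ± 0.28 (0.24 to 1.58) with a limma adjusted p of 0.697. Neither passed, and none of the 11398 genes tested did (0%), with 783 at an unadjusted p under 0.05 and 0 called by limma-voom on the recovered reads. With the spread shared over all 36 libraries, the limma adjusted p was 0.0616 for Cxcl10 and 0.441 for Cxcl9. Cxcl11 was under the filter of 1 FPKM in 3 libraries, and its difference of 0.46 on the log2(FPKM + 1) scale became 1.33 on the log2 read scale of voom (adjusted p = 0.768).

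Single libraries shifted the size of the tumor differences. ICB replicate 2 held the highest Cxcl10 value and also the skeletal muscle signal of 349 FPKM. Without it the Cxcl10 difference was 0.77 (limma adjusted p = 0.996) and the Cxcl9 difference 1.00, and the groups stayed separate. Without IgG replicate 3, the library with the highest IgG Cxcl10 and the lowest Cxcl9, they were 1.08 and 0.64. T cell markers did not separate the tumor groups: 11 of them summed to 6.58 to 8.41 FPKM under IgG and 6.55 to 11.8 FPKM under ICB. The 12 macrophage and monocyte markers summed to 315 to 956 FPKM and 397 to 572 FPKM, also with overlap, and no defining marker of either list was at 0.

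In kidney, Cxcl9 was higher under ICB, with 0.154, 0.211 and 0.136 FPKM in the IgG libraries and 0.301, 0.582 and 0.650 FPKM in the ICB libraries. The groups were separate, as they were with ICB higher for 4.8% of 18296 genes in kidney. The means gave a ratio of 3.06, from 34 reads (exact Poisson interval 23.5 to 47.5) and 116 reads (95.9 to 139). Cxcl9 was under the filter in kidney, so no test was made with it; without a filter its limma adjusted p was 0.817, and in voom its difference was 1.495 (adjusted p = 0.963). Cxcl10 in kidney was 1.07, 1.03 and 0.505 FPKM under IgG and 0.791, 1.04 and 1.62 FPKM under ICB, with overlap and a difference of 0.20 ± 0.18 (95% interval -0.21 to 0.61, limma adjusted p = 0.992). That difference was 0.05 without IgG replicate 3 and also without ICB replicate 3. Limma called 2 of 11901 genes in kidney, 0.0168%, both lower under ICB and named after their values were seen: mt-Nd3 and Gm2606.

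Macrophage, dendritic cell and T cell markers were higher in the same kidney libraries. The 12 macrophage and monocyte genes summed to 70.04 to 76.2 FPKM under IgG and 83.4 to 191 FPKM under ICB, without overlap. Dendritic cell markers summed to 1.82 to 2.52 FPKM and 3.11 to 3.54 FPKM, and T cell markers to 1.74 to 2.56 FPKM and 3.11 to 4.27 FPKM, also without overlap. Of the 11 T cell markers 10 were under 1 FPKM in every kidney library. Erythroid genes were lower, at 212 to 349 FPKM under ICB against 497 to 693 FPKM under IgG. The part of these markers in the Cxcl9 result was not tested.

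In lung, Cxcl9 was 0.111, 0.0231 and 0.00962 FPKM under IgG and 0.0601, 0.439 and 0.576 FPKM under ICB. The groups overlapped, since 2 of the 3 ICB libraries were above the highest IgG library and the third lay below it. The ratio of means of 7.47 rests on 13 reads under IgG (exact Poisson interval 6.92 to 22.2) and 111 under ICB (91.3 to 134), and 10 of the 13 came from IgG replicate 1. In voom the difference was 2.86 with an adjusted p of 0.994. Cxcl10 in lung was 0.596, 0.139 and 0.116 FPKM under IgG and 0.295, 0.441 and 0.582 FPKM under ICB, overlapping because IgG replicate 1 held the highest value of all 6.

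That library also had the highest sums of T cell and NK cell markers in its group and the highest haemoglobin. T cell markers summed to 37.1, 14.2 and 20.7 FPKM under IgG and 28.1, 44.0 and 34.3 FPKM under ICB, and NK cell markers to 31.7, 7.53 and 12.2 FPKM and 19.0, 24.7 and 30.7 FPKM. Erythroid genes summed to 15636, 8367 and 1577 FPKM under IgG and 1521, 2113 and 346.3 FPKM under ICB. The part of these markers in the ligand values was not tested. In lung 4.56% of 18445 genes had every ICB library above every IgG library, and limma called 0 of 12747 genes (0%), with 555 at an unadjusted p under 0.05 and 0 called by voom.

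In liver, Cxcl9 and Cxcl10 had higher means under ICB and overlapping libraries. Cxcl9 went from 2.12 ± 1.42 to 3.92 ± 1.85 FPKM (SD, n = 3 each), with 2 of 3 ICB libraries above the highest IgG library. Cxcl10 was 0.253, 0.865 and 1.24 FPKM under IgG and 1.05, 1.84 and 1.41 FPKM under ICB. The limma differences were 0.71 ± 0.44 for Cxcl9 (95% interval -0.31 to 1.73, adjusted p = 0.999) and 0.47 ± 0.25 for Cxcl10 (-0.11 to 1.05, adjusted p = 0.999).

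Both liver ligands were lowest in IgG replicate 1. Without that library the differences were 0.25 for Cxcl9 and 0.24 for Cxcl10, and without ICB replicate 2 the Cxcl9 difference was 0.46. Cxcl11 went the other way in the means, 0.487 to 0.454 FPKM, with overlap and 69 against 61 reads. Macrophage markers in liver summed to 400, 668 and 504 FPKM under IgG and 1556, 614 and 1935 FPKM under ICB, and the ICB library with the lowest sum had the highest Cxcl9 and Cxcl10. Groups were separate with ICB higher for 4.02% of 17695 genes, none of them a ligand, and limma called 0 of 11257 genes (0%), with 379 at an unadjusted p under 0.05 and 0 called by voom.

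In skeletal muscle the ligand values overlapped for all 3 genes. The ratio of ICB to IgG means was 1.36 for Cxcl9, 0.662 for Cxcl10 and 1.06 for Cxcl11, within a spread that reached 1.28 to 0.147 FPKM for Cxcl9 under IgG alone. In heart, Cxcl9 and Cxcl10 had lower means under ICB, with ratios of 0.654 and 0.727 and overlapping libraries. All 3 ICB hearts were below the IgG mean for Cxcl9, and 1 was above the highest but one of the IgG libraries.

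No ligand passed the filter in muscle or heart. Voom gave differences of 0.70 for Cxcl9 and -0.22 for Cxcl10 in muscle and of -0.61 and -0.14 in heart. Of 18055 genes in muscle 5.87% were separate with ICB higher, and of 18119 in heart 4.61%. Limma called 0 of 11410 genes in muscle (0%) and 0 of 11476 in heart (0%), with 608 and 521 at an unadjusted p under 0.05 and 0 called by voom in both.

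**Figure D4:**
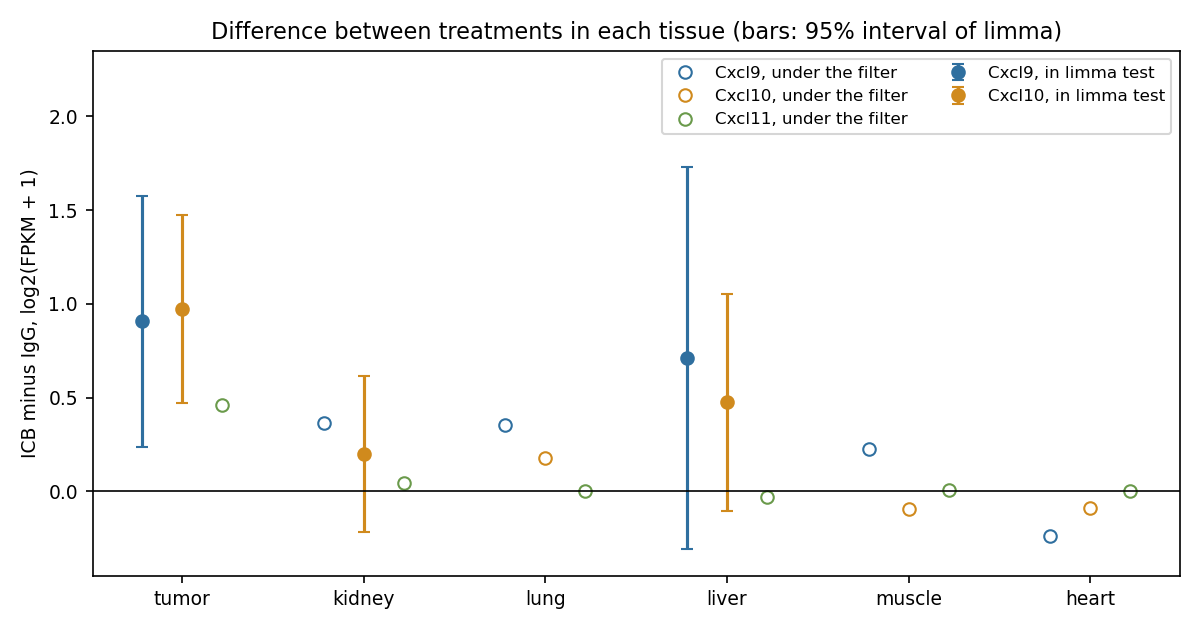
Difference between ICB and IgG on the log2(FPKM + 1) scale for each ligand and tissue, with 95% intervals of limma for ligands that passed the filter (filled) and no interval for those that did not (open). The intervals of Cxcl9 and Cxcl10 lie above 0 in tumor before adjustment, at 0.91 and 0.97, and include 0 for Cxcl10 in kidney and for both ligands in liver.

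Averaged over the 5 organs in the 36-library fit, Cxcl9 differed by 0.28 ± 0.14 (95% interval -0.01 to 0.58, limma adjusted p = 0.566) and Cxcl10 by 0.13 ± 0.10 (adjusted p = 0.801). Of 16253 genes 70 passed in this average, 0.431%, and 62 of the 70 were higher under ICB. A low gene is compressed on this scale: with a pseudocount of 0.1 in place of 1 the averages became 0.75 and 0.34, and in voom 1.11 and 0.42, with no call under any of these settings.

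The ICB difference in tumor minus that average was 0.84 ± 0.26 for Cxcl10 (95% interval 0.32 to 1.36, limma adjusted p = 0.281). For Cxcl9 it was 0.62 ± 0.35 (limma adjusted p = 0.879). Neither passed, while 38 genes (0.234%) did, 21 of the 38 with the more positive effect in tumor, against 14 of 41 on the TPM scale. A gene that fell in the organs and stayed level in tumor also counts as more positive. For Cxcl9 the difference between tumor and organs depended on how low values were treated, being 0.26 with a pseudocount of 0.1 and -0.07 in voom. The ICB effects of single organs were not tested against each other.

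CXCR3 itself was low in tumor and highest in lung. Cxcr3 measured 0.0696, 0.117 and 0.659 FPKM in IgG tumor and 0.471, 0.499 and 0.437 FPKM in ICB tumor, with overlap through 1 IgG library. In lung it was 1.76, 0.706 and 0.889 FPKM under IgG and 1.61, 2.40 and 2.08 FPKM under ICB, a difference of 0.54 ± 0.20 with overlapping groups (limma adjusted p = 0.988). Under IgG, Cxcr3 was lower in tumor than in lung by a log2 difference of -0.72 (limma adjusted p = 0.000644). Its differences from the other 4 organs did not pass, at 0.09 for kidney, -0.07 for liver, 0.17 for muscle and 0.09 for heart. On the TPM scale they were 0.49, 0.53, 0.76 and 0.64, so the direction for liver flipped and muscle passed (limma adjusted p = 0.0247). The organ with the most receptor transcript was thus the one with the lowest Cxcl9, at 0.203 FPKM over 6 libraries.

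Ackr3, the scavenging receptor, was higher in most organs than in tumor. It averaged 0.980 ± 0.671 FPKM in IgG tumor and 0.421 FPKM in IgG liver, against 10.2 in kidney, 9.75 in lung, 9.04 in muscle and 16.995 in heart. Limma called it lower in tumor than in kidney (-2.54), lung (-2.45), muscle (-2.36) and heart (-3.23), with the same direction on the TPM scale, and its difference from liver of 0.43 did not pass (adjusted p = 0.205) but was 1.74 and passed on the TPM scale (limma adjusted p = 4.67e-05).

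Dpp4, the gene of the ligand-trimming protease, was highest in liver on the deposited scale. Its IgG means were 26.0 FPKM in liver, 14.6 in kidney, 11.2 in lung, 1.32 in muscle, 0.507 in heart and 0.214 in tumor. Limma called it lower in tumor than in liver (-4.42), kidney (-3.68), lung (-3.29) and muscle (-0.90), with the same direction on the TPM scale, while for heart the -0.31 did not pass and became 0.07 on the TPM scale. The order of the organs changed on the TPM scale. There the difference was largest for lung at -4.41, before kidney at -4.28 and liver at -4.09. Between ICB and IgG limma called none of Cxcr3, Ackr3 and Dpp4 in any tissue in which they were tested.

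Of the signal transduction genes upstream of the ligands, Irf1 in tumor was 19.9, 24.1 and 25.9 FPKM under IgG and 33.1, 26.0 and 31.7 FPKM under ICB. The groups were separate by a narrow gap, and the difference was 0.36 ± 0.14 (limma adjusted p = 0.707). Stat2, which carries type I interferon signals, differed by 0.47 ± 0.10 and Irf7, which amplifies interferon production, by 0.88 ± 0.27, both with separate groups. Both were picked by the smallest p in a tissue, from a list whose members went both ways in tumor. Its receptor genes Ifngr1, Ifngr2, Ifnar1 and Ifnar2 were lower under ICB there. Under IgG, Irf1 was called higher in tumor than in kidney (2.61), liver (1.24), muscle (2.26) and heart (1.82), and its difference of 0.20 from lung did not pass.

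Known targets of the same signals stood as follows in tumor, where 48.2% of all tested genes were higher under ICB and the median difference was -0.01. Of 17 interferon-gamma response genes 16 were tested and 15 were higher, with a median of 0.45, and of 12 type I interferon response genes all 12 were tested and higher, with a median of 0.66. None passed with limma, and 10 and 9 of them had an unadjusted p under 0.05. Gbp3, a guanylate-binding protein of cell-autonomous defence, went from 20.4 ± 1.36 to 39.4 ± 4.37 FPKM, a difference of 0.92 ± 0.12 (limma adjusted p = 0.385). Igtp, an immunity-related GTPase, went from 24.7 ± 3.68 to 44.8 ± 1.87 FPKM. Ifit1, which binds foreign RNA, went from 15.2 ± 3.995 to 29.3 ± 4.42 FPKM, and Isg15, a ubiquitin-like modifier, from 80.8 ± 29.3 to 154 ± 24.2 FPKM. All 4 had separate groups, as did 5.3% of all genes with a value in tumor, with ICB higher. Genes named from a list, these 4 included, were picked by passing or by the smallest p in a tissue. Their separation is therefore not a further result.

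The other chemokines of the tumor did not all go the same way. Of 10 tested CC chemokine genes 8 were higher under ICB, with a median of 0.45, and of 6 tested CXC chemokine genes other than the ligands 3 were, with a median of 0.03. Ccl8 had separate groups and a difference of 0.61, and limma gave Cxcl14 a difference of 2.25 ± 0.60 with separate groups. Cxcl14 was 2.38, 1.25 and 0.512 FPKM under IgG and 3.08, 19.4 and 13.9 FPKM under ICB, highest in the library with the skeletal muscle signal of 349 FPKM. Fat cell markers summed to 2.01 to 8.04 FPKM under IgG and to 3.35, 51.7 and 47.9 FPKM under ICB, high in the same pair of libraries as Cxcl14. Without ICB replicate 2 the Cxcl14 difference was 1.79 (limma adjusted p = 0.996), and the part of the fat and muscle markers in it was not tested. Of 9 NF-kB pathway genes 2 were higher, with a median of -0.13, and Relb was lower under ICB by 0.31 with separate groups. No share of all genes separate in that direction is given here. Limma called none of these chemokine and NF-kB pathway genes.

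In the organs the same lists differed from tissue to tissue. The interferon-gamma response list was higher under ICB for 10 of 12 tested genes in kidney (median 0.14), 14 of 15 in lung (0.42), 9 of 12 in liver (0.25) and 12 of 12 in muscle (0.50). In heart 3 of 14 were higher, with a median of -0.10, beside 51.3% of all genes there. The share of all tested genes higher under ICB was 44.9% in kidney, 47.6% in lung, 45.6% in liver and 50.6% in muscle. On the TPM scale these shares were 82.4% in lung, 75.8% in heart, 72.9% in kidney, 48.7% in muscle and 44.2% in liver. The interferon-gamma response list was then higher for 15 of 15 tested genes in lung, 6 of 14 in heart, 11 of 12 in kidney, 12 of 12 in muscle and 9 of 12 in liver. Type I response genes were higher for 4 of 10 in kidney, a median of -0.06 that became 0.03 on the TPM scale, for 8 of 12 in lung (0.12), 8 of 11 in liver (0.21) and 9 of 10 in muscle (0.22), and for 0 of 10 in heart (-0.50), or 1 of 10 there on the TPM scale.

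Single genes stood out in these lists without passing in limma. Gbp2 was separate in kidney (3.23 ± 0.517 to 4.92 ± 1.43 FPKM) and in liver (2.28 ± 0.680 to 4.32 ± 0.721 FPKM), the latter without separation of any ligand. In heart, Ifit1 went from 5.82 ± 0.6997 to 3.53 ± 0.880 FPKM and Ifit2 from 8.28 ± 0.950 to 5.60 ± 0.682 FPKM, both with every ICB library below every IgG library. They were picked by the smallest p, and the share of all genes separate with ICB lower is not given here. In lung the TPM scale moved the median of all genes from -0.01 to 0.20 and the interferon-gamma response median from 0.42 to 0.68.

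Across the organ average, the 12 macrophage markers were all higher under ICB, with a median of 0.66, beside 47.3% of all tested genes higher and 0.431% called. On the TPM scale 245 of 249 calls of this average were higher, against 62 of 70. Of the 12 macrophage markers limma called 5 on the deposited scale. Mpeg1 rose by 0.68 (limma adjusted p = 0.0201), Csf1r by 0.65 (0.0270), Adgre1 by 0.72 (0.0421), Lyz2 by 0.96 (0.0465) and Cd68 by 0.74 (0.0490). Erythroid genes were lower for 5 of 5, with a median of -1.26, and Hba-a2 fell by 1.69 (limma adjusted p = 0.0249). These 6 calls did not hold under every setting: with the title-number block their limma adjusted p was 0.0630 to 0.114, in voom only Mpeg1 passed (0.0421), without a filter Cd68 and Lyz2 did not (0.0559 and 0.0544), and without the trend Cd68 did not (0.0511). Cxcl9, at 0.28 in the same average, did not pass, and the part of these markers in its value was not tested.

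**Figure D5:**
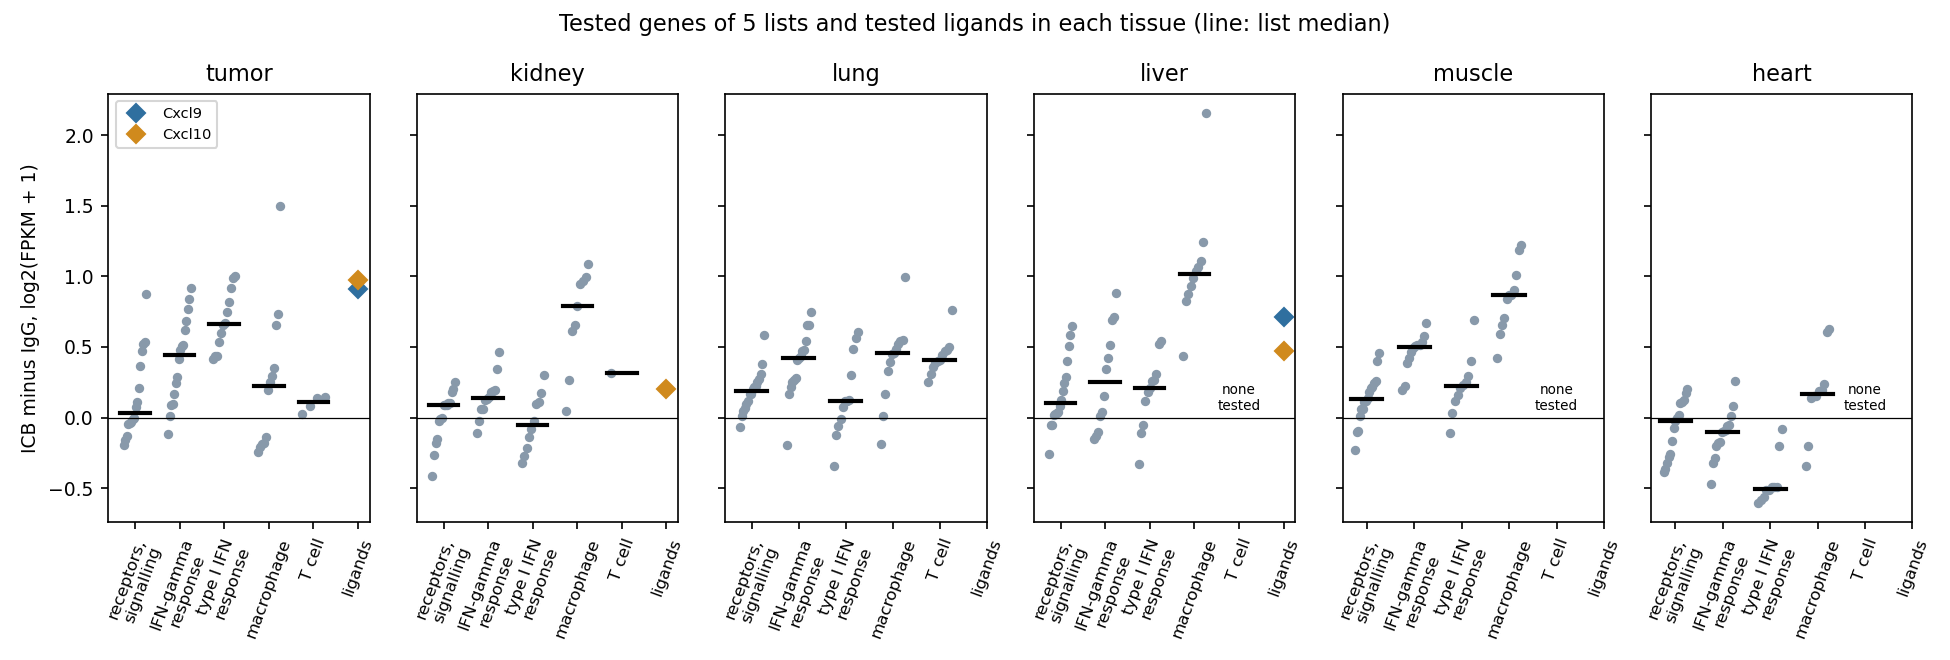
Difference between ICB and IgG (log2(FPKM + 1)) for each tested gene of 5 lists and for the tested ligands, by tissue, with a line at each list's median. In tumor all 12 type I interferon response genes lie above 0, with a median of 0.66, and in heart all 10 lie below it, with a median of -0.50.

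The genes most like each ligand were taken by Pearson r of log2(FPKM + 1) over the 12 group means. These values are a description, since the points share libraries and the contrast of tumor with organs sets most of the range. For Cxcl10 the nearest were Ddias (0.997), Chek1 (0.994), Rrm2 (0.993), Cenpk (0.992) and Gtse1 (0.991). For Cxcl9 they were Tgtp1 (0.977), Pa2g4 (0.954), Gins1 (0.953), Eif4a-ps4 (0.952) and Erh (0.948). For Cxcl11 they were Dcaf13 (0.934), its neighbour Nup54 (0.932), Oasl1 (0.930), Nucks1 (0.928) and Spc24 (0.926).

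With each group mean subtracted, over 36 libraries, the nearest genes changed. For Cxcl10 they included Mov10 (0.719), Ddx58 (0.691), Lgals9 (0.681) and Serpinb1a (0.676). For Cxcl9 they were Cyp2c23 (0.776), Echdc3 (0.762), Serpinb9 (0.761), Acss2 (0.756) and Gpr39 (0.754). For Cxcl11 they were Mug-ps1 (0.873), Mup-ps21 (0.816), Nutf2-ps1 (0.813), BC048644 (0.810) and Fabp2 (0.800). These r are the highest of all genes compared and are again a description. Mug-ps1 and Mup-ps21 were at 0 FPKM in both tumor groups, and Cxcl11 itself was at 0 in 4 lung and 4 heart libraries.

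The ligands followed each other in some tissues and not in others. Over the 6 libraries of a tissue, with the treatment means subtracted, r between Cxcl9 and Cxcl10 was 0.97 in liver, 0.82 in muscle, 0.73 in kidney and 0.63 in lung, against -0.41 in tumor and -0.07 in heart. Between Cxcl10 and Cxcl11 it was 0.92 in lung, 0.79 in tumor, 0.57 in heart, -0.08 in kidney, -0.35 in liver and -0.65 in muscle. Between Cxcl9 and Cxcl11 it was 0.62 in lung, -0.06 in tumor, -0.27 in kidney, -0.33 in liver, -0.45 in heart and -0.61 in muscle. Each r rests on 6 libraries and is given without a test, and those of Cxcl11 in lung and heart rest on 2 reads per tissue.

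Of the genes beside the ligands, Art3 was separate between treatments in tumor (0.303 ± 0.0171 to 0.520 ± 0.0199 FPKM) and in heart (81.0 ± 6.97 to 106 ± 7.39 FPKM), where its difference was 0.38 ± 0.10 (limma adjusted p = 0.997). The Cxcl10 means of the same tumor groups were 41.6 and 83.8 FPKM, in the same order as Art3. Those of the same heart groups were 0.453 and 0.329 FPKM, in the opposite order. The part of Art3 reads in the Cxcl10 values was not tested. Naaa, Nup54 and Sdad1 differed in tumor by 0.14, 0.14 and 0.15, and Scarb2 was lower under ICB by 0.37 with separate groups. No share of all genes separate with ICB lower is given here. Limma called none of these neighbours in any tissue.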

How the data were processed

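RNA from flash-frozen tissue was extracted with TRIzol and made into Illumina TruSeq libraries, per the labels' protocols. The authors deposited 1 table of FPKM for all libraries. The aligner was HISAT2 2.1.0, the genome build mm10 and edgeR a further tool, per the submitters' processing notes, with the version of edgeR, the counter, the annotation and the strandedness not given in the sources used here. The FPKM of 18781 of 18781 rows gave whole reads (tolerance 0.001 reads), with normalization factors of 0.532 to 1.60 that differed within a tissue by a ratio of at most 1.22. The 15 rows without a name (0.0834% to 0.374% of reads) and 3 symbols on 2 rows each were left out. No 2 libraries of a group agreed within sampling noise (36 pairs, lowest chi-square per degree of freedom 10.3).

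Groups came from the labels. Within each tissue, log2(FPKM + 1) was compared with limma 3.58.1 in R 4.3.3 (moderated test, mean-variance trend, two-sided, Benjamini-Hochberg over all genes tested, threshold 0.05). A gene entered a tissue's test if 3 or more of its 6 libraries reached 1 FPKM. The organ average, the tumor against that average and the tumor against each organ used 1 fit of 12 group means and needed 1 FPKM in 3 or more of the 36 libraries. The scripts were tested on simulated data. Poisson intervals are exact and cover counting error only. Other values were computed with Python 3.11.15, numpy 2.4.6, pandas 2.3.3 and scipy 1.17.1, and drawn with matplotlib 3.10.9.

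The ligands, the gene lists and the tests were chosen with earlier results of these data known. Named genes were the ligands, Cxcr3, Ackr3, Dpp4, Irf1, the neighbouring genes and, of each list, those that passed and up to 4 with the smallest p in a tissue; not all are printed, and some items are not reported here. Likeness used the 5 highest r among genes that passed the filter, passing over predicted genes. The alternatives left out the filter or the trend, or used a pseudocount of 0.1, TPM or median-of-ratios scaling, limma-voom on reads, 1 fit of 36 libraries, the title number as a block and fits without each library in turn. Voom with at least 10 reads over a fit and the transcript lengths were added after seeing the data.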

Additional observations from a re-analysis of the deposited data

How the results depend on the processing

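Cxcl9 and Cxcl10 kept their direction and their side of the threshold under every alternative in the tests within tissues, against each organ and over the organ average. The exception among all tests was the Cxcl9 effect in tumor minus the organ average, which turned to -0.075 in limma-voom and to -0.074 with the filter on reads; the cause was not tested. The sizes of the tested differences were less steady where organ values were low. Cxcl9 ranged from 0.28 to 1.11 over the organ average and from 2.66 to 7.36 for tumor against lung under IgG. Within tumor it ranged from 0.91 to 1.04 and Cxcl10 from 0.95 to 0.99. Of ligands under the filter, 8 voom values moved beyond the spread of the deposited scale. With 1 fit of all 36 libraries the genes called for ICB against IgG numbered 70 in muscle, 68 in liver, 60 in tumor, 55 in lung, 10 in kidney and 3 in heart, where the fits within a tissue called 2 in kidney and 0 in the others. Without a filter kidney and liver had 1 call each, and voom called 1 gene in kidney under both filters. The organ average, with 70 calls, had 249 on the TPM scale, 15 in voom, 16 with the filter on reads and 5 with the title-number block. The tumor effect against that average, with 38 calls, had 18 with a pseudocount of 0.1, 75 without a filter, 6 in voom and 14 with the filter on reads.

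Leaving out each library in turn gave 0 to 39 calls in liver, 1 to 9 in kidney, 0 to 6 in tumor, 0 to 2 in heart, 0 to 0 in lung and muscle, 60 to 89 for the organ average and 16 to 278 for the tumor against it. The highest counts came without ICB replicate 2 in liver and kidney, without IgG replicate 3 in tumor and for the tumor against the organs, and without ICB replicate 3 in heart. Liver had 1 call without IgG replicate 1, tumor 1 without ICB replicate 1, and kidney 1 without any other library. For the tumor against the organs the count was 74 and 19 without IgG replicates 1 and 2 and 83 and 16 without ICB replicates 1 and 3. Cxcl10 ranged from 0.77 to 1.14 in tumor, 0.05 to 0.32 in kidney, 0.24 to 0.66 in liver and 0.63 to 1.00 for tumor against the organ average. Cxcl9 ranged from 0.64 to 1.21 in tumor, 0.25 to 1.05 in liver and 0.35 to 0.93 for tumor against that average, the lowest without tumor IgG replicate 3.

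No paired analysis was possible within a tissue because the numbers in the IgG and ICB titles differ. Across tissues, libraries with the same title number had deviations correlated at a median of 0.117 (32 of 56 pairs over 0.1). For different numbers the median was -0.027 (32 of 214), so libraries sharing a number were more alike. The labels do not say what the number marks, and the main fit of 36 libraries has no block. It treats libraries that share a number as independent, which may not hold. With the number as a replicate block (consensus correlation 0.106), Cxcl9 over the organ average was 0.30 (limma adjusted p = 0.761), Cxcl10 0.15 (0.949), and Cxcl10 in tumor against that average 0.83 (0.185). Outside tumor and liver, Cxcl11 had 0 to 11 reads per library; Cxcl10 had 3 to 28 in muscle and 6 to 44 in heart.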
